A study of Xenopus tropicalis with 12 samples.

Results

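Liver RNA of 12 libraries was compared by thyroid hormone rather than by age. All livers were from wild-type *Xenopus tropicalis* tadpoles that shared the same parents, and the 12 libraries, 3 in each of 4 groups, are the whole of the series. The high-hormone side held 6 libraries: 3 from untreated tadpoles at stage 61, the climax of metamorphosis, and 3 from tadpoles that were treated at stage 54 with 10 nM T3, which is triiodothyronine, the form of thyroid hormone that binds the receptors, for 18 hours. The low-hormone side also held 6: 3 from untreated tadpoles at stage 54, before metamorphosis, and 3 from untreated tadpoles at stage 66, its end. Libraries were placed by their labels alone, and the 4 groups were weighted equally. Per the series' design text, the 3 samples of a group came from different tadpoles. Hormone was not measured in these samples, so the 2 sides are named for what is known of the stages and the treatment. One group on the high side received hormone from outside for hours and the other made its own over days, and each side joins groups of different age. In whole-liver RNA, fewer cells of a type and less RNA per cell cannot be told apart.

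Thyroid hormone acts through the nuclear receptors TRα and TRβ, which bind DNA with a retinoid X receptor, hold target genes low without hormone and raise them when hormone binds. Its level in a tissue is set by deiodinases, which activate or destroy it, and by transporters and carriers in blood. In the tadpole it drives metamorphosis, in which the liver is not lost but is remodelled, and takes up the adult work of urea synthesis and of secreting adult plasma proteins.

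The libraries held between 7928459 and 39536147 counts and between 16272 and 18922 detected genes. All 16 hepatocyte markers examined passed the filter on low counts, and their summed level was between 44590 and 103900 CPM (counts scaled to a common library size, with TMM factors for composition). The first principal component of log2 CPM (41.8% of the variance) separated the younger libraries (untreated and T3-treated stage 54) from the older (stages 61 and 66). The second (18.2%) placed the 3 T3 and 3 stage 61 libraries between -39.0 and -25.9. Of the low-hormone libraries, stage 54 replicates 1 and 2 and stage 66 replicates 2 and 3 lay between 37.1 and 61.4. Stage 54 replicate 3 lay in between, at 9.17, and stage 66 replicate 1 lay among the high-hormone libraries, at -31.4. Stage 66 replicate 1 differed from its 2 fellows by a chi-square per gene of 236 and 255, where those 2 differed by 14.9. The T3 libraries were by far the closest, with a chi-square per gene of 2.48 to 7.65, above the value of about 1 that sampling alone gives, and a biological coefficient of variation of 2.57% against 23.9% to 40.1% in the other groups. They were kept as 3 replicates, as labelled. The tests of genes treat them as independent, which the counts alone cannot show. The gene and list calls were recomputed with them summed into 1 library.

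**Figure D1:**
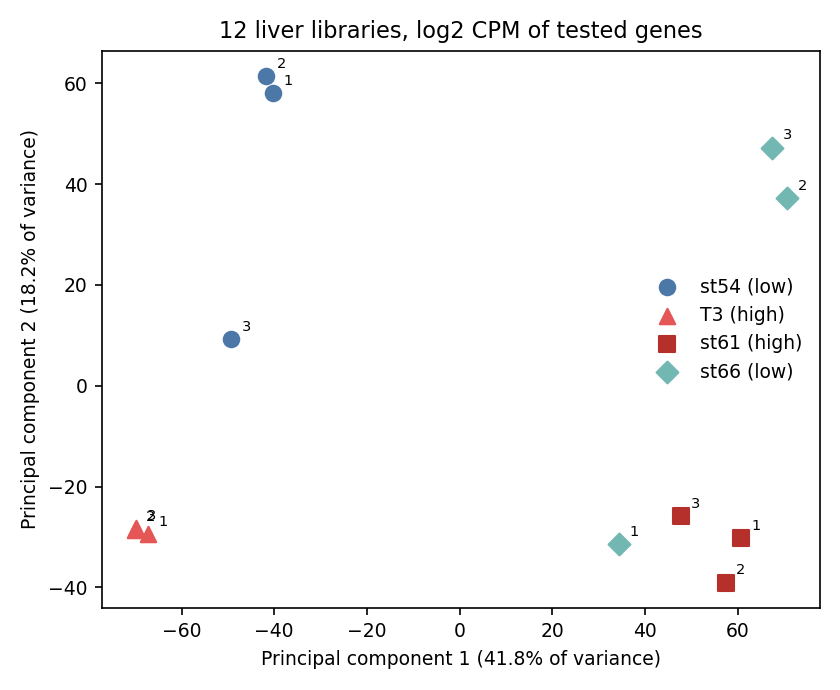
Position of the 12 liver libraries on the first (x axis) and second (y axis) principal component of log2 CPM over the tested genes; points are libraries, with the replicate number beside them. The younger and older libraries separate along x, and the high-hormone and low-hormone libraries along y, except stage 66 replicate 1 at -31.4 and stage 54 replicate 3 at 9.17.

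The first question was which genes follow hormone across both ages. An edgeR quasi-likelihood model was fitted to 15102 genes. The hormone contrast (the mean log2 level of the T3 and stage 61 groups minus that of the stage 54 and stage 66 groups) was tested over both ages. It was positive for 958 genes (6.34% of those tested) and negative for 1086 (7.19%) at a Benjamini-Hochberg adjusted p under 0.05, the threshold used throughout. Group levels are given below as mean ± SD over 3 libraries and changes as log2 fold change ± standard error with the edgeR adjusted p. The genes with the highest contrast at a level of at least 10 CPM included *thibz*, a hormone-induced transcription factor, *mmp9.2*, a matrix protease, and *bcl6*, a transcriptional repressor. The lowest included *cyp7a1*, which carries out the first and rate-limiting step from cholesterol to bile acids. The change was at least 2-fold for 330 of the higher and 314 of the lower genes. All 6 high-hormone libraries stood above all 6 low-hormone libraries for 194 of the called genes (1.28% of those tested) and below them for 145 (0.96%). Over all genes tested, called or not, complete separation was found for 208 upward (1.38%) and 162 downward (1.07%).

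These counts leaned on single libraries. They were 2852 and 2978 without stage 66 replicate 1, and 1699 and 1929 without stage 54 replicate 3, the libraries that stood apart. Leaving out stage 54 replicate 1 gave 610 and 567, and stage 54 replicate 2 gave 611 and 480. Stage 61 replicate 1 gave 656 and 599, and stage 61 replicate 2 gave 606 and 340. Stage 66 replicate 2 gave 581 and 499, and stage 66 replicate 3 gave 688 and 638. Leaving out T3 replicate 1, 2 or 3 gave 452, 459 or 454 genes higher and 324, 338 or 333 lower. With the T3 libraries summed into 1, which left the other groups to supply the spread, 97 genes were higher and 18 lower. As shares of the genes tested in each fit, higher and lower, these were 18.5% and 19.3% without stage 66 replicate 1, 11.1% and 12.5% without stage 54 replicate 3, 25.8% and 25.1% without both, and 0.616% and 0.114% with the T3 libraries summed. DESeq2 on all libraries gave 9.24% and 11.9%. List counts given below for these fits are to be read against these shares, and counts from the fit of all libraries against 6.34% and 7.19%. Of the 112 genes named here with a call in the hormone contrast, 29 were still called in every alternative fit, also in the setting with the T3 libraries summed: *thibz*, *mmp9.2*, *bcl6*, *thrb*, *dio2*, *nfib*, *nfic*, *nfix*, *dnmt3a*, *adamts17*, *tns4*, *lamb3*, *shisa2*, *ccl4*, *bhmt*, *gnmt*, *dmgdh*, *gstz1*, *f5*, *oat*, *gpam*, *akr1d1*, *sec23a*, *gusb*, *ezh2*, *axin2*, *cldn5*, *anpep* and *asb11*. 53 of the others lost the call in that setting alone, and 30 also lost it in at least 1 other.

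The contrast joins 2 comparisons that share no library: T3 against stage 54, among young livers, and stage 61 against stage 66, among old ones. T3 against stage 54 called 1430 genes higher (9.47%) and 1140 lower (7.55%). Stage 61 against stage 66 called 647 higher (4.28%) and 866 lower (5.73%). Both tests used a spread pooled over all groups, the close T3 libraries included. Each of these counts also moved by over 1.5 times when single libraries were left out. They ran between 537 (without T3 replicate 3) and 2549 (without stage 66 replicate 1) higher with T3, and between 308 (without stage 61 replicate 2) and 2082 (without stage 66 replicate 1) higher at stage 61. The 2 sets of log2 fold changes were close to unrelated across the 15102 genes, with a Pearson's r of 0.023, a Spearman's rho of 0.031 and the same sign for 51.1% of genes, which are not independent of each other. Without stage 66 replicate 1 these values were 0.126, 0.188 and 57.4%. Among called genes, 352 passed in both comparisons, 161 of them in the same direction (6.26% of the genes called with T3 and 10.6% of those called at stage 61) and 191 in opposite directions. Without stage 66 replicate 1, 1833 passed in both, 1368 in the same direction. Most genes called in the hormone contrast therefore passed in 1 of the comparisons or in neither. Of the 958 higher genes, 99 passed in both (0.656% of those tested), 475 with T3 alone, 250 at stage 61 alone and 134 in neither. Of the 1086 lower genes these numbers were 62 (0.411%), 364, 368 and 292. The direction was that of the contrast in both comparisons, called or not, for 831 of the 958 and 985 of the 1086. These genes were picked by the mean of the 2 comparisons, which by itself favours a shared direction. Over all genes tested the sign was the same for 51.1%. Leaving out any library other than stage 66 replicate 3 moved the 99 or the 62 by over 1.5 times, from 41 and 9 without T3 replicate 1 to 515 and 853 without stage 66 replicate 1.

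**Figure D2:**
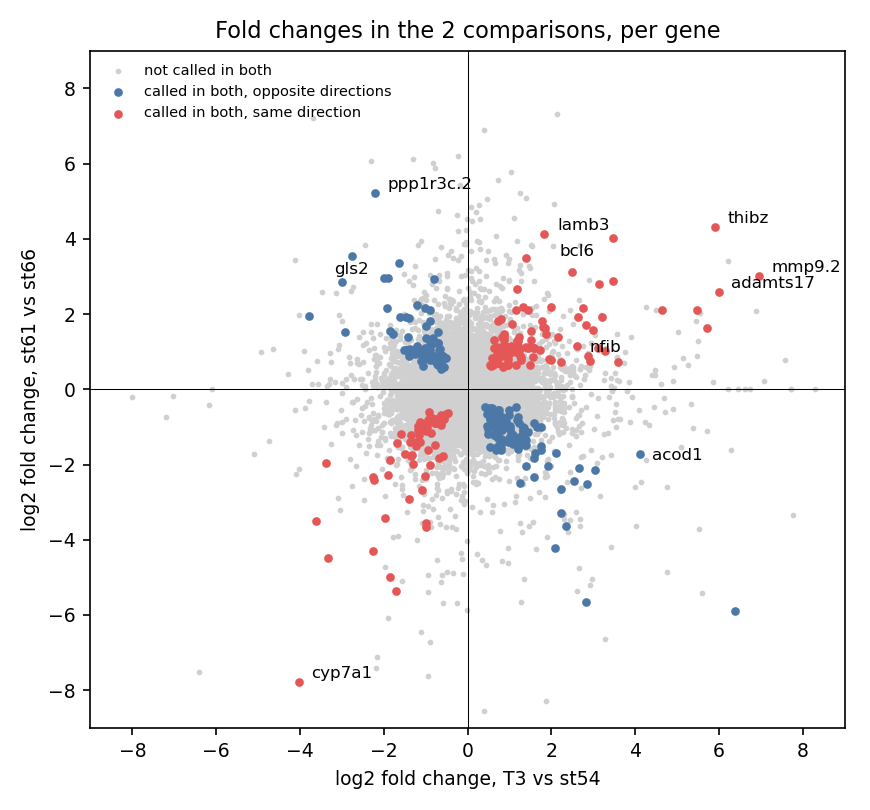
Log2 fold change of each of the 15102 tested genes with T3 against stage 54 (x axis) and at stage 61 against stage 66 (y axis), with genes called in both comparisons in red (161, same direction) or blue (191, opposite directions). The cloud has no slope (r = 0.023), and *thibz*, *mmp9.2*, *adamts17*, *bcl6* and *lamb3* lie far out at the upper right and *cyp7a1* at the lower left.

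Many, but not all, of the genes known to respond to thyroid hormone were higher on the high-hormone side. Of 26 tested response genes, 14 were higher in the hormone contrast, 12 were higher with T3, 9 were higher at stage 61 against stage 66, and 7 passed in all of these. With the T3 libraries summed 9 were higher, and without stage 66 replicate 1 there were 20 higher and 1 lower. The list's median contrast was 0.82 on the log2 scale, where that of all genes tested was -0.04. The list holds genes known from *Xenopus* metamorphosis and was written with results of these libraries known, so it is not independent evidence of their direction.

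The leucine zipper factor *thibz* lies on chromosome 3 from 140193605 to 140202878 and is among the most strongly hormone-induced genes known in *Xenopus*. Levels of *thibz* were 0.129, 0.485 and 2.87 CPM at stage 54 and 58.6, 58 and 60.5 with T3. Later *thibz* stood at 326, 429 and 329 at stage 61 and 4.75, 23.5 and 27.3 at stage 66. Every high-hormone library lay above every low-hormone one, and the T3 libraries lay between the stage 66 and the stage 61 libraries. For *thibz* the hormone contrast was log2 5.11 ± 0.59 (SE), adjusted p = 0.000597. The transcriptional repressor *bcl6* lies on chromosome 5 from 103321745 to 103338601. Levels of *bcl6* were 16.9, 15.9 and 11.4 CPM at stage 54 and 83.4, 81.8 and 82 with T3. Later *bcl6* stood at 74.2, 100.4 and 90.9 at stage 61 and 12.4, 5.57 and 12.3 at stage 66. Here the T3 and stage 61 libraries overlapped at a high level, and the stage 54 and stage 66 libraries overlapped at a low one. For *bcl6* the hormone contrast was log2 2.8 ± 0.19 (SE), adjusted p = 2.17e-05. It was log2 2.48 ± 0.27, adjusted p = 0.0004 with T3 and log2 3.11 ± 0.28, adjusted p = 0.000214 at stage 61 against stage 66. The contrast by age was log2 -0.21 ± 0.18, adjusted p = 0.417, so *bcl6* followed hormone with no called change between the younger and the older livers. The DNA methyltransferase *dnmt3a* also separated the 2 sides completely, with 30.2 ± 5.3 CPM at stage 54, 64.9 ± 1.03 with T3, 91.2 ± 6.76 at stage 61 and 44.2 ± 12.2 at stage 66. For *dnmt3a* the hormone contrast was log2 1.07 ± 0.14 (SE), adjusted p = 0.00129.

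Nuclear factor I proteins are transcription factors of late development. Levels of *nfib* were 13.9, 15.6 and 14 CPM at stage 54 and 89.5, 86.3 and 92.2 with T3. Later *nfib* stood at 71.8, 84.8 and 90.2 at stage 61 and 41.9, 38 and 30.7 at stage 66. Thus *nfib*, on chromosome 1 from 124363187 to 124531032, was higher in every high-hormone library, and the stage 66 libraries stayed above those of stage 54. For *nfib* the hormone contrast was log2 1.89 ± 0.11 (SE), adjusted p = 6.99e-06. The rise with T3 (log2 2.62 ± 0.16, adjusted p = 1.14e-05) was greater than that at stage 61 (log2 1.16 ± 0.16, adjusted p = 0.00159). The difference passed the test (log2 1.46 ± 0.22, adjusted p = 0.00261). Its relative *nfic* had 4.39 ± 0.989 CPM at stage 54, 52.1 ± 0.99 with T3, 226 ± 15.1 at stage 61 and 137 ± 9.42 at stage 66, so that the stage 66 libraries stood above the T3 libraries. The hormone contrast of *nfic* was log2 2.15 ± 0.13, adjusted p = 6.99e-06 and its age contrast log2 3.55 ± 0.13, adjusted p = 4.76e-08. *nfix*, looked at after its values were seen, had the same order of groups (1.79 ± 0.518 CPM at stage 54, 13.2 ± 0.665 with T3, 103 ± 2.38 at stage 61 and 61.5 ± 12.6 at stage 66). The fourth family member, *nfia*, also looked at afterwards, was not called (log2 0.45 ± 0.23, adjusted p = 0.194).

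The receptor genes differed from each other. *thrb*, which encodes TRβ and is a direct target of the hormone in *Xenopus*, lies on chromosome 6 from 46687270 to 46933187. Levels of *thrb* were 0.99, 1.59 and 0.492 CPM at stage 54 and 24.4, 24 and 24.6 with T3. Later *thrb* stood at 21.7, 17.2 and 19.7 at stage 61 and 14.3, 14.5 and 16.6 at stage 66. All T3 and stage 61 libraries lay above all others, but the stage 66 libraries lay close below them and far above stage 54. For *thrb* the hormone contrast was log2 2.42 ± 0.19 (SE), adjusted p = 4.49e-05. It rose with T3 (log2 4.47 ± 0.29, adjusted p = 1.44e-05), while stage 61 against stage 66 was not called (log2 0.37 ± 0.24, adjusted p = 0.359). The 2 changes differed (log2 4.1 ± 0.37, adjusted p = 0.00029). *thra*, which encodes TRα, moved over a narrower range, with 4.42 ± 1.31 CPM at stage 54, 6.94 ± 0.361 with T3, 4.1 ± 0.793 at stage 61 and 1.84 ± 0.294 at stage 66. Its contrast was log2 0.89 ± 0.18, adjusted p = 0.0105, called at stage 61 against stage 66 (log2 1.12 ± 0.27, adjusted p = 0.0231) but not with T3 (log2 0.66 ± 0.24, adjusted p = 0.0758). The 2 changes did not differ at the threshold (log2 -0.45 ± 0.36, adjusted p = 0.422). The direct target *klf9*, a Krüppel-like repressor, had 7.9 ± 1.97 CPM at stage 54, 37.6 ± 0.974 with T3, 30.9 ± 2.48 at stage 61 and 21.6 ± 11.9 at stage 66. Stage 66 replicate 3 at 33.7 CPM lay within the range of the high-hormone libraries. For *klf9* the hormone contrast was log2 1.39 ± 0.24 (SE), adjusted p = 0.00582. The partner receptor gene *rxrg* went the other way (log2 -0.88 ± 0.15, adjusted p = 0.0051), with 85.7 ± 13.3 CPM at stage 54, 29.2 ± 0.164 with T3, 78 ± 18.4 at stage 61 and 89.6 ± 19.3 at stage 66. It fell with T3 (log2 -1.55 ± 0.21, adjusted p = 0.00156) and had no called change at stage 61 (log2 -0.2 ± 0.21, adjusted p = 0.595), and that difference passed (log2 -1.36 ± 0.3, adjusted p = 0.0137). *ppara*, a receptor for fatty acids, was higher in both comparisons, by log2 0.64 ± 0.2, adjusted p = 0.0443 and log2 0.72 ± 0.2, adjusted p = 0.0424.

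The genes that set local hormone levels also differed from each other. *dio2*, which encodes the activating deiodinase, had 1.86 ± 0.407 CPM at stage 54, 6.74 ± 0.539 with T3, 21.4 ± 5.48 at stage 61 and 7.65 ± 1.29 at stage 66. It was higher both with T3 (log2 1.88 ± 0.25, adjusted p = 0.00116) and at stage 61 (log2 1.48 ± 0.23, adjusted p = 0.00327), although the T3 and stage 66 libraries overlapped. *dio3*, which encodes the inactivating deiodinase, lies on chromosome 8 from 97238054 to 97239535. Levels of *dio3* were 918, 1002 and 463 CPM at stage 54 and 349, 350.0 and 361 with T3. Later *dio3* stood at 13.1, 14.1 and 11.3 at stage 61 and 6.62, 15.5 and 53.8 at stage 66. It was high in all young libraries and low in all old ones, and its age contrast was log2 -4.89 ± 0.47, adjusted p = 2.6e-05. Its hormone contrast was not called (log2 -1.07 ± 0.4, adjusted p = 0.0943), though 3 other fits called it lower. *slc16a10*, a transporter of aromatic amino acids and thyroid hormone, rose in the contrast (log2 0.83 ± 0.19, adjusted p = 0.0191). The plasma carrier *ttr*, chosen after its values were seen, followed age (log2 -2.38 ± 0.16, adjusted p = 2.23e-06) with a hormone contrast of log2 -0.42 ± 0.16, adjusted p = 0.0897. The *slc16a10* call was lost in 3 other fits, among them those without T3 replicate 1 or 3.

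**Figure D3:**
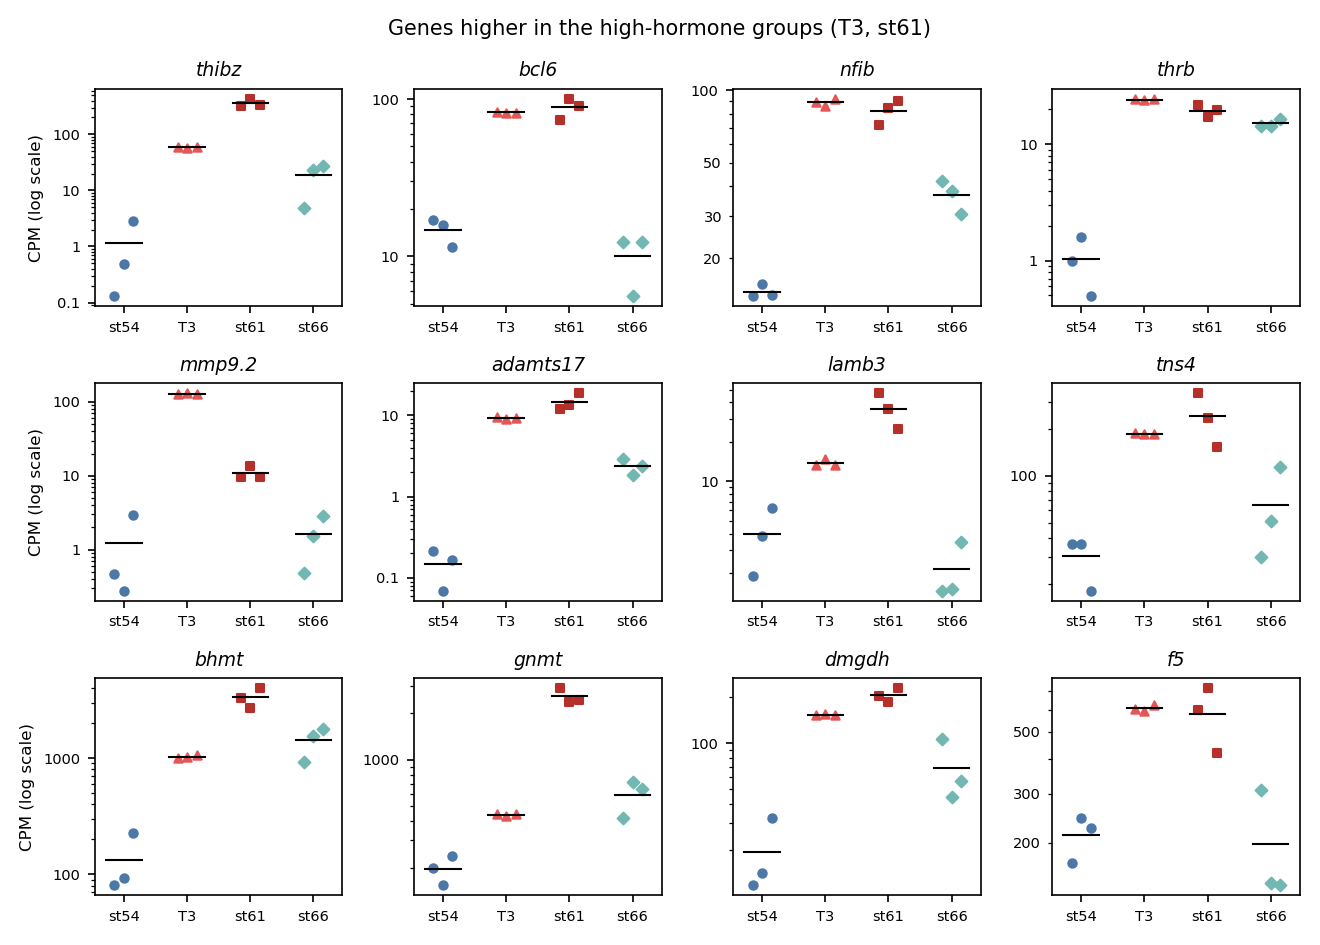
CPM (log scale, y axis) of 12 genes in the 12 libraries, by group (x axis); points are libraries and bars are group means. In each panel the T3 and stage 61 means lie above the stage 54 mean. *bhmt* and *gnmt* have T3 means (1031 and 441 CPM) below their stage 66 means (1421 and 592). *bcl6*, *f5* and *lamb3* have stage 66 means (10.1, 198 and 2.14) below their stage 54 means (14.7, 214 and 3.98).

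Several of the named genes that rose act in the matrix or in cell attachment. They were brought together by known role after their values were seen and are no tested list. Levels of *mmp9.2* were 0.474, 0.277 and 2.95 CPM at stage 54 and 129, 130.5 and 128 with T3. Later *mmp9.2* stood at 9.65, 13.7 and 9.72 at stage 61 and 0.489, 1.52 and 2.85 at stage 66. *mmp9.2* (chromosome 10, 19964004 to 19971510), a gelatinase that cuts matrix, was thus highest under T3 and next at stage 61, with no overlap between the sides. For *mmp9.2* the hormone contrast was log2 4.97 ± 0.52 (SE), adjusted p = 0.00029. The rise with T3 was larger than that at stage 61 (log2 3.94 ± 1.03, adjusted p = 0.0276). Levels of *adamts17* were 0.215, 0.0693 and 0.164 CPM at stage 54 and 9.65, 9.15 and 9.24 with T3. Later *adamts17* stood at 12.2, 13.4 and 18.7 at stage 61 and 2.89, 1.86 and 2.4 at stage 66. *adamts17*, a secreted metalloprotease (chromosome 3, 115341304 to 115483047), stood at or near the level of 3 counts at stage 54, where 3 counts were worth between 0.102 and 0.240 CPM. For *adamts17* the hormone contrast was log2 4.29 ± 0.22 (SE), adjusted p = 3.08e-06. Levels of *lamb3* were 1.89, 3.81 and 6.23 CPM at stage 54 and 13.4, 14.8 and 13.3 with T3. Later *lamb3* stood at 46.7, 35.7 and 24.9 at stage 61 and 1.47, 1.52 and 3.45 at stage 66. *lamb3*, a laminin chain of basement membranes (chromosome 2, 50735036 to 50792656), rose more at stage 61 than with T3 (T3 minus stage 61 change log2 -2.3 ± 0.59, adjusted p = 0.0254). Its contrast was log2 2.98 ± 0.3, adjusted p = 0.00026. *tns4*, a focal adhesion protein, had 30.3 ± 10.6 CPM at stage 54, 188 ± 1.19 with T3, 244 ± 94.7 at stage 61 and 65 ± 43.4 at stage 66 and a contrast of log2 2.27 ± 0.33, adjusted p = 0.00213. *loxl2*, a collagen crosslinking enzyme, was higher in every high-hormone library, with a contrast of log2 1.02 ± 0.2, adjusted p = 0.00973.

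Others of the leading genes have roles outside the matrix. *slc1a4*, a transporter of small neutral amino acids, had 7.37 ± 11.3 CPM at stage 54, 328 ± 3.37 with T3, 685 ± 93.5 at stage 61 and 169 ± 55.2 at stage 66. Stage 54 replicate 3 at 20.4 CPM stood apart from its fellows at 0.818 and 0.866. For *slc1a4* the hormone contrast was log2 3.78 ± 0.69 (SE), adjusted p = 0.00684. The gene was called with T3 (log2 5.53 ± 1.06, adjusted p = 0.00757) and not at stage 61 against stage 66 (log2 2.02 ± 0.9, adjusted p = 0.173). *shisa2*, a regulator of Wnt and FGF receptors, had a contrast of log2 2.27 ± 0.27, adjusted p = 0.00081 without overlap of the sides. The Wnt pathway list as a whole had 6 of 49 tested members higher (12.2%, against 6.34% of all genes) and 2 lower, at a median of 0.17. These were 18 and 4 without stage 66 replicate 1, and 1 higher with the T3 libraries summed. Called members included *axin2*, a feedback inhibitor (log2 2.52 ± 0.34, adjusted p = 0.00139), and *fzd8*, a receptor (log2 1.26 ± 0.21, adjusted p = 0.00464). *axin2* had 0.777 ± 0.47 CPM at stage 54, 8.48 ± 0.496 with T3, 29 ± 17.8 at stage 61 and 10.6 ± 3.03 at stage 66. *asb11*, an ankyrin repeat protein, had 0.0547 ± 0.0947 CPM at stage 54, 1.65 ± 0.157 with T3, 34.4 ± 1.62 at stage 61 and 8.25 ± 3.23 at stage 66, so its age contrast (log2 6.06 ± 0.36, adjusted p = 1.01e-06) exceeded its hormone contrast (log2 3.79 ± 0.38, adjusted p = 0.000252).

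Enzymes of methionine and choline breakdown were among the metabolic genes that rose. Levels of *bhmt* were 80.3, 93.3 and 228 CPM at stage 54 and 993, 1026 and 1074 with T3. Later *bhmt* stood at 3284, 2714 and 4024 at stage 61 and 933, 1539.8 and 1790.3 at stage 66. *bhmt*, which remakes methionine from homocysteine and betaine (chromosome 1, 185878152 to 185887640), was thus lowest at stage 54 and highest at stage 61, and the T3 and stage 66 libraries overlapped. For *bhmt* the hormone contrast was log2 2.09 ± 0.28 (SE), adjusted p = 0.00131, and the age contrast was larger (log2 2.55 ± 0.28, adjusted p = 7.46e-05). The gene was called with T3 (log2 2.95 ± 0.41, adjusted p = 0.00156) and not at stage 61 against stage 66 (log2 1.23 ± 0.38, adjusted p = 0.0643). *gnmt*, which uses up S-adenosylmethionine, had 197 ± 41.6 CPM at stage 54, 441 ± 6.39 with T3, 2563 ± 300.4 at stage 61 and 592 ± 155 at stage 66 and rose with T3 (log2 1.16 ± 0.24, adjusted p = 0.0106) and at stage 61 (log2 2.11 ± 0.25, adjusted p = 0.000742). Levels of *dmgdh* were 11.8, 14.2 and 32.2 CPM at stage 54 and 153, 156 and 153 with T3. Later *dmgdh* stood at 204, 186 and 231 at stage 61 and 106, 44.3 and 56.5 at stage 66. *dmgdh*, the next enzyme after *bhmt* in choline breakdown and its neighbour on chromosome 1 (185857164 to 185877979), was higher in all 6 high-hormone libraries, with a contrast of log2 2.29 ± 0.28, adjusted p = 0.000827. In the list of amino acid breakdown, 6 of 44 tested genes were higher and 5 lower, with a median of -0.09. Without the 2 libraries that stood apart, 15 were higher and 12 lower, in a fit that called 25.8% and 25.1% of all genes. Among the lower members were *gstz1*, an enzyme of tyrosine breakdown (log2 -1.18 ± 0.12, adjusted p = 0.00025), and *got2*, the mitochondrial aspartate aminotransferase (log2 -0.54 ± 0.12, adjusted p = 0.0173), both with no overlap of the sides. The *got2* call was lost in 5 of 19 other fits.

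Nitrogen enzymes did not move as one. *oat*, which links ornithine and glutamate, had 26 ± 16 CPM at stage 54, 51.2 ± 0.381 with T3, 59.8 ± 20.5 at stage 61 and 5.31 ± 1.32 at stage 66. Its contrast was log2 2.22 ± 0.28, adjusted p = 0.000976, to which stage 61 against stage 66 (log2 3.46 ± 0.42, adjusted p = 0.000947) gave more than T3 (log2 0.98 ± 0.38, adjusted p = 0.091), a difference that passed (log2 -2.48 ± 0.55, adjusted p = 0.014). *otc*, the urea cycle step that makes citrulline, was higher in the contrast (log2 1.2 ± 0.33, adjusted p = 0.0352), a call lost in 10 other fits. It had 124 ± 13.3 CPM at stage 54, 198 ± 4.42 with T3, 407 ± 151 at stage 61 and 123 ± 103 at stage 66. *aldh4a1*, of proline breakdown, had log2 1.54 ± 0.32, adjusted p = 0.0129. *cps1*, the first enzyme of the urea cycle, had 1524 ± 373 CPM at stage 54, 1013 ± 3.97 with T3, 6881 ± 1673 at stage 61 and 4207 ± 98.5 at stage 66. Its age contrast was log2 2.11 ± 0.18, adjusted p = 1.08e-05 and its hormone contrast log2 0.06 ± 0.17, adjusted p = 0.847. *arg1*, the last enzyme of the cycle, was not called either (log2 -0.81 ± 0.34, adjusted p = 0.124). Over the list, 3 of 22 genes were higher and 2 lower (9 and 4 without the 2 libraries that stood apart), and the medians of the comparisons were -0.26 with T3 and 0.55 at stage 61.

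Of 46 tested plasma protein genes 8 were higher and 1 lower in the contrast. At stage 61 there were 11 higher and 0 lower, and with T3 1 higher and 3 lower, with medians of 0.29 and -0.25. Without the 2 libraries that stood apart 15 were higher and 14 lower, and with the T3 libraries summed 1 was higher. Levels of *f5* were 169, 246 and 226 CPM at stage 54 and 606, 594 and 624 with T3. Later *f5* stood at 602, 719.7 and 421 at stage 61 and 309, 143 and 141 at stage 66. *f5*, clotting factor V (chromosome 2, 55393365 to 55438437), was higher in all high-hormone libraries and had almost the same change in both comparisons, log2 1.51 ± 0.32, adjusted p = 0.0114 and log2 1.55 ± 0.32, adjusted p = 0.0125. For *f5* the hormone contrast was log2 1.53 ± 0.23 (SE), adjusted p = 0.0025. *cp*, the copper carrier ceruloplasmin, had 445 ± 164 CPM at stage 54, 1116 ± 42.9 with T3, 3106 ± 1125 at stage 61 and 781 ± 581 at stage 66 and a contrast of log2 1.66 ± 0.35, adjusted p = 0.0129. *a2m*, a protease inhibitor, had a contrast of log2 0.78 ± 0.17, adjusted p = 0.0153 and *apob*, the protein of very low density lipoprotein, one of log2 0.97 ± 0.23, adjusted p = 0.0219, a call lost in 7 other fits. *cp*, *a2m* and *apob* were called at stage 61 against stage 66 and not with T3. With T3 they changed by log2 1.33 ± 0.49, adjusted p = 0.0823, log2 0.33 ± 0.24, adjusted p = 0.355, and log2 0.58 ± 0.33, adjusted p = 0.228. *proc* and *f12*, further genes of the clotting system, were called at stage 61 (log2 1.05 ± 0.18, adjusted p = 0.00487 and log2 1.43 ± 0.22, adjusted p = 0.00259) and not with T3 (log2 0.44 ± 0.18, adjusted p = 0.111 and log2 0.01 ± 0.21, adjusted p = 0.985). The difference passed for *f12* (log2 -1.42 ± 0.3, adjusted p = 0.0116) but not for *proc* (log2 -0.61 ± 0.25, adjusted p = 0.127). *alb*, albumin, was not called (log2 -0.54 ± 0.19, adjusted p = 0.0774), with 10727 ± 1111 CPM at stage 54, 6335 ± 514 with T3, 12285 ± 1570.3 at stage 61 and 15423 ± 5389 at stage 66. *ptx*, a pentraxin of the acute phase, was called (log2 0.79 ± 0.18, adjusted p = 0.0174), a call lost in 4 other fits, and its age contrast was larger (log2 4.33 ± 0.2, adjusted p = 2.51e-07).

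Genes of fatty acid and triglyceride synthesis were called in both directions. *gpam*, the first step of triglyceride synthesis, had 44.4 ± 18 CPM at stage 54, 79 ± 1.74 with T3, 374 ± 26.7 at stage 61 and 87.5 ± 25.6 at stage 66 and a contrast of log2 1.46 ± 0.21, adjusted p = 0.00225. *scd*, a fatty acid desaturase, had 77.3 ± 43.3 CPM at stage 54, 125 ± 0.435 with T3, 438 ± 287 at stage 61 and 25.5 ± 23.3 at stage 66. It changed by log2 4.07 ± 0.76, adjusted p = 0.00736 at stage 61 against stage 66, while T3 gave log2 0.69 ± 0.67, adjusted p = 0.501, and the difference passed the test (log2 -3.39 ± 0.97, adjusted p = 0.0385). Over the list of fatty acid synthesis and storage 2 of 31 genes were higher and 6 lower (9 and 8 without the 2 libraries that stood apart). *insig1*, a brake on sterol synthesis, had log2 1.42 ± 0.23, adjusted p = 0.00398 in the contrast and log2 -2.55 ± 0.24, adjusted p = 2.3e-05 by age. *slc27a2*, an importer of fatty acids, had 2.16 ± 2.96 CPM at stage 54, 36.8 ± 0.6 with T3, 779 ± 158 at stage 61 and 172 ± 61.2 at stage 66. Its hormone contrast was log2 3.21 ± 0.52, adjusted p = 0.00422, and its age contrast was larger (log2 5.44 ± 0.57, adjusted p = 5.33e-05). It was called with T3 (log2 4.25 ± 0.79, adjusted p = 0.00665) and not at stage 61 against stage 66 (log2 2.18 ± 0.69, adjusted p = 0.0665).

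Genes of sterol and bile acid metabolism were among those that fell. Levels of *cyp7a1* were 1425, 1772 and 118 CPM at stage 54 and 67.5, 67.4 and 67.6 with T3. Later *cyp7a1* stood at 0.743, 0.237 and 0.398 at stage 61 and 224, 33.4 and 41.2 at stage 66. *cyp7a1* (chromosome 6, 116352903 to 116357128) was close to 0 in the stage 61 libraries, and stage 54 replicate 3 stood far below its fellows. The T3 libraries at about 67.5 CPM lay within the range of the stage 66 libraries, so the sides overlapped. For *cyp7a1* the hormone contrast was log2 -5.91 ± 0.76 (SE), adjusted p = 0.00107, and the age contrast was close in size (log2 -5.34 ± 0.74, adjusted p = 0.000333). It fell in both comparisons, with changes of log2 -4.03 ± 0.94, adjusted p = 0.0168 and log2 -7.78 ± 1.19, adjusted p = 0.00281. Levels of *akr1d1* were 1329, 1473 and 786 CPM at stage 54 and 553, 593 and 606 with T3. Later *akr1d1* stood at 68.6, 69 and 128 at stage 61 and 598, 1456 and 1178 at stage 66. *akr1d1*, the 5β-reductase of bile acid synthesis (chromosome 3, 7690155 to 7717117), fell more at stage 61 than with T3 (T3 minus stage 61 change log2 2.57 ± 0.52, adjusted p = 0.00937), with a contrast of log2 -2.32 ± 0.27, adjusted p = 0.000613. *sult2b1*, a sterol sulfotransferase, had 649.7 ± 378 CPM at stage 54, 135 ± 3.87 with T3, 5.85 ± 1.35 at stage 61 and 114 ± 91.8 at stage 66 and log2 -3.28 ± 0.43, adjusted p = 0.00127. *slc51a*, a bile acid exporter subunit, was lower in the contrast (log2 -1.1 ± 0.29, adjusted p = 0.0293), with a call at stage 61 (log2 -2.11 ± 0.42, adjusted p = 0.00975), none with T3 (log2 -0.1 ± 0.4, adjusted p = 0.892) and a called difference (log2 2.01 ± 0.57, adjusted p = 0.0365). *acox2*, a peroxisomal oxidase of the bile acid side chain, was the 1 list member that rose (log2 0.42 ± 0.11, adjusted p = 0.028). The last 2 calls were lost in 9 and 10 other fits.

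Of 17 tested bile acid genes 4 were lower and 1 higher, with a median of -0.40. Of 28 cholesterol genes 5 were lower and 1 higher, with a median of -0.66. Without stage 54 replicate 3 these lower counts were 9 and 15, and with the T3 libraries summed 1 bile acid gene was lower. In the cholesterol list the age contrast called 22 genes lower. *sqle* and *mvk*, enzymes of the synthesis pathway, had contrasts of log2 -2.78 ± 0.81, adjusted p = 0.044 and log2 -1.22 ± 0.31, adjusted p = 0.0259, which were lost in 14 and 8 other fits.

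Several genes of antioxidant defence and detoxification were lower as well. Those of antioxidant defence were brought together by known role after their values were seen, and had no list of their own. Levels of *hpgds* were 1172, 1259.8 and 709.7 CPM at stage 54 and 439, 479 and 493 with T3. Later *hpgds* stood at 427, 340.1 and 530.5 at stage 61 and 609, 1170.4 and 1259 at stage 66. *hpgds*, a glutathione-dependent prostaglandin D synthase (chromosome 1, 76718552 to 76735731), was lower in every high-hormone library. It changed by log2 -1.15 ± 0.31, adjusted p = 0.0289 with T3 and log2 -1.23 ± 0.31, adjusted p = 0.03 at stage 61, and showed no called change by age (log2 -0.09 ± 0.22, adjusted p = 0.804). Levels of *cat.2* were 2451, 2463 and 1251 CPM at stage 54 and 1056, 1109 and 1145 with T3. Later *cat.2* stood at 969, 705 and 746 at stage 61 and 2771, 3724 and 3313 at stage 66. *cat.2*, a catalase gene (chromosome 4, 15423274 to 15440257), also separated the sides, with a contrast of log2 -1.46 ± 0.2, adjusted p = 0.00131. *prdx2*, a peroxiredoxin, had 552 ± 57.2 CPM at stage 54, 271 ± 9.91 with T3, 418 ± 13.2 at stage 61 and 875 ± 369 at stage 66 and log2 -1.05 ± 0.2, adjusted p = 0.00938. *gpx3*, the secreted glutathione peroxidase, had 3400.0 ± 80.7 CPM at stage 54, 1531 ± 118 with T3, 567 ± 27.1 at stage 61 and 3361 ± 2096 at stage 66 and log2 -1.86 ± 0.31, adjusted p = 0.00438. Stage 66 replicate 1 at 1026 CPM lay within the high-hormone range. Of the 31 tested detoxification genes 8 were lower (13, with 5 higher, without the 2 libraries that stood apart). Among them was *ephx2*, an epoxide hydrolase (log2 -1.91 ± 0.25, adjusted p = 0.00129). Also lower were *cyp2e1* (log2 -2.36 ± 0.48, adjusted p = 0.0116) and *cyp4b1* (log2 -0.94 ± 0.18, adjusted p = 0.00955), both cytochrome P450 enzymes. Copies of catalase and P450 genes lie near each other in this genome, so reads could be shared between them.

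**Figure D4:**
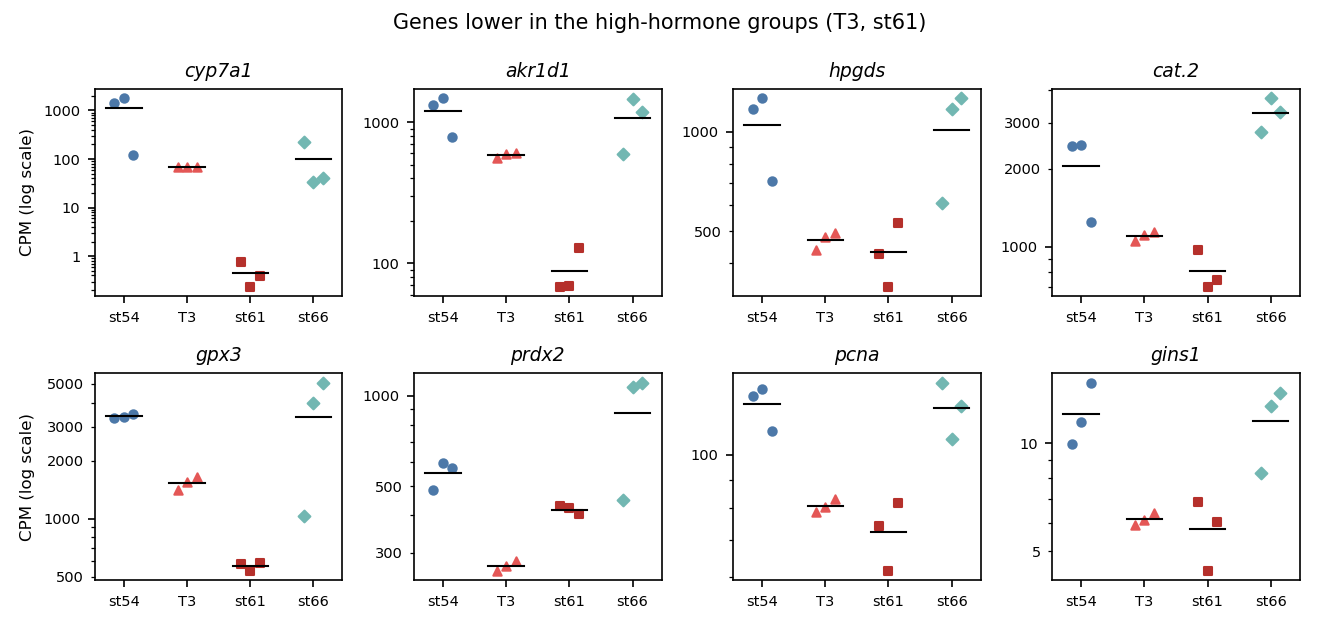
CPM (log scale, y axis) of 8 genes in the 12 libraries, by group (x axis); points are libraries and bars are group means. *hpgds*, *cat.2*, *prdx2*, *pcna* and *gins1* are lower in all 6 high-hormone libraries than in all 6 low-hormone ones, while *cyp7a1*, *akr1d1* and *gpx3* overlap.

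Among further genes that fell, *ppat*, *poli*, *tctex1d4*, *degs3* and *amn1* did so in both comparisons, with no called difference between the comparisons, and had varied roles. Levels of *ppat* were 44.8, 43.6 and 25.8 CPM at stage 54 and 13, 12.4 and 12.9 with T3. Later *ppat* stood at 8.74, 12 and 15.3 at stage 61 and 35.2, 24.3 and 21.9 at stage 66. *ppat*, the first enzyme of purine synthesis (chromosome 1, 40894626 to 40909865), was lower in every high-hormone library, with a contrast of log2 -1.38 ± 0.19, adjusted p = 0.00139. *poli*, a translesion DNA polymerase, had 31.7 ± 8.27 CPM at stage 54, 13.6 ± 0.811 with T3, 14.5 ± 1.2 at stage 61 and 38.8 ± 15.9 at stage 66 and log2 -1.32 ± 0.19, adjusted p = 0.0018. *tctex1d4*, a dynein light chain relative, had a contrast of log2 -2.09 ± 0.32, adjusted p = 0.00269. *degs3*, a relative of sphingolipid desaturases, had one of log2 -1.64 ± 0.23, adjusted p = 0.00177, and *amn1* one of log2 -1.27 ± 0.21, adjusted p = 0.00476. *palmd*, palmdelphin, had a contrast of log2 -1.75 ± 0.37, adjusted p = 0.0128, with a call at stage 61 (log2 -2.41 ± 0.53, adjusted p = 0.0172), none with T3 (log2 -1.08 ± 0.51, adjusted p = 0.151) and a difference that did not pass (log2 1.32 ± 0.72, adjusted p = 0.238). Other genes fell unevenly. *plekhd1* was nearly absent at stage 61, at 0.507 CPM, with a contrast of log2 -3.53 ± 0.43, adjusted p = 0.000861 and a called difference between the comparisons (log2 3.65 ± 0.84, adjusted p = 0.0161). *rasd1*, a small GTPase induced by glucocorticoids, had a contrast of log2 -2.34 ± 0.65, adjusted p = 0.0371, with log2 -4.13 ± 0.99, adjusted p = 0.019 with T3 and log2 -0.56 ± 0.88, adjusted p = 0.731 at stage 61. *ddit4*, another corticosteroid-responsive gene, had a contrast of log2 -1.72 ± 0.48, adjusted p = 0.037. It fell with T3 (log2 -3.58 ± 0.71, adjusted p = 0.00879) and not at stage 61 (log2 0.15 ± 0.66, adjusted p = 0.918), a called difference (log2 -3.73 ± 0.96, adjusted p = 0.0253). The *rasd1* and *ddit4* calls were lost in 13 and 12 other fits.

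Single genes of energy metabolism were called. *pdk4*, which holds back the oxidation of pyruvate, fell in both comparisons (log2 -1.13 ± 0.23, adjusted p = 0.0104 and log2 -1.4 ± 0.24, adjusted p = 0.00461), as did *fbp1*, of gluconeogenesis (log2 -1.09 ± 0.25, adjusted p = 0.0148 and log2 -0.92 ± 0.25, adjusted p = 0.0384). *hadh*, of fatty acid oxidation, was lower (log2 -1.07 ± 0.25, adjusted p = 0.0182) and *agl*, the glycogen debranching enzyme, was higher (log2 0.74 ± 0.18, adjusted p = 0.0238), and its change at stage 61 (log2 1.6 ± 0.26, adjusted p = 0.00367) differed from that with T3 (T3 minus stage 61 change log2 -1.73 ± 0.36, adjusted p = 0.011). These 2 calls were lost in 5 and 6 other fits. Of 30 fatty acid oxidation genes 3 were lower (10.0%) and 1 higher. Of 35 genes of glucose metabolism 4 were lower (11.4%) and 2 higher, where 7.19% of all genes were lower. Without the 2 libraries that stood apart these were 10 lower and 4 higher, and 12 lower and 8 higher.

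Some genes of DNA replication were lower on the high-hormone side. Levels of *pcna* were 128, 132 and 110.4 CPM at stage 54 and 78.8, 80.5 and 83 with T3. Later *pcna* stood at 74.3, 61.6 and 81.7 at stage 61 and 135, 107 and 123 at stage 66. *pcna*, the sliding clamp of replication (chromosome 3, 123023407 to 123027549), was lower in all 6 high-hormone libraries, with changes of log2 -0.61 ± 0.16, adjusted p = 0.0263 with T3 and log2 -0.74 ± 0.16, adjusted p = 0.0154 at stage 61. Levels of *gins1* were 9.95, 11.5 and 14.8 CPM at stage 54 and 5.93, 6.12 and 6.37 with T3. Later *gins1* stood at 6.86, 4.41 and 6.02 at stage 61 and 8.26, 12.7 and 13.8 at stage 66. *gins1*, of the replicative helicase (chromosome 5, 38932998 to 38938167), changed by about the same amount in both, log2 -0.97 ± 0.24, adjusted p = 0.02 and log2 -0.99 ± 0.24, adjusted p = 0.0269. *pold3*, a polymerase subunit, had a smaller contrast (log2 -0.59 ± 0.11, adjusted p = 0.00623). In all, 6 of 45 tested replication genes were lower, 3 of them in both comparisons, and the median was -0.25. *dhfr*, which supplies thymidine synthesis, was lower with a contrast of log2 -1.1 ± 0.26, adjusted p = 0.0213. Among 45 mitosis genes 1 was lower (*cenpa*, a centromere histone, log2 -0.53 ± 0.15, adjusted p = 0.038). *mki67*, a proliferation marker, was not called (log2 0.15 ± 0.43, adjusted p = 0.842), with 123 CPM in stage 66 replicate 1 and 17.1 and 14.5 in its fellows. These lists turned on that library: without stage 66 replicate 1, 18 replication genes were higher and 9 lower, and 28 mitosis genes were higher and 1 lower. The calls of *dhfr* and *cenpa* were lost in 7 and 11 other fits.

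In the lists of mitochondrial translation and respiration every call was downward. Of 44 tested genes for the mitochondrial ribosome 12 were lower, with medians of -0.16 with T3 and -0.73 at stage 61. The list's summed level was 1248 to 1264 CPM with T3 and 953 to 1273 at stage 61, all below the low-hormone libraries at 1314 or more. The ratio of the sides was 0.694 (exact two-sided permutation test of 6 against 6 libraries, p = 0.00216, the smallest this design allows, 0.0317 after Benjamini-Hochberg adjustment over 44 lists). That test takes the 12 libraries as exchangeable, although they form 4 groups and the T3 libraries are very close to each other. This list and the others tested in this way were chosen with earlier results of these data known. Their p-values are therefore not independent evidence. With the T3 libraries as 1 sample (4 against 6) the ratio was 0.672 and the exact permutation p 0.0238, which is 0.335 after adjustment. On library totals without the TMM scaling the sides overlapped and the exact permutation p was 0.0714. Examples are *mrpl15* (log2 -0.84 ± 0.16, adjusted p = 0.00946), *mrpl18* (log2 -0.83 ± 0.14, adjusted p = 0.00509), *mrps31* (log2 -0.63 ± 0.12, adjusted p = 0.00938) and *mrps5* (log2 -0.59 ± 0.1, adjusted p = 0.00455). Of 57 respiratory chain genes 8 were lower, with a median of -0.42, such as the ATP synthase subunits *atp5f1a* (log2 -0.61 ± 0.17, adjusted p = 0.0334) and *atp5f1d* (log2 -0.72 ± 0.18, adjusted p = 0.0259), whose calls were lost in 11 and 8 other fits. Cytosolic ribosomal proteins had a median of -0.75, and 4 of 74 were lower (5.41%, below the 7.19% of all genes). Among them was *rps9* (log2 -1.0 ± 0.3, adjusted p = 0.0498), a call lost in 15 other fits. Without stage 66 replicate 1, the lower counts of these 3 lists were 23 of 44 (with 1 higher), 36 of 57 (with 1 higher) and 74 of 74, and DESeq2 on all libraries gave 22, 23 and 74. Without stage 54 replicate 3 the lower counts were 13, 5 and 0, in a fit that called 12.5% of all genes lower. The counts of these lists thus turned on single libraries. The chaperones *hspa8* and *hsp90ab1*, abundant heat shock proteins, were lower, with contrasts of log2 -0.99 ± 0.27, adjusted p = 0.0322 and log2 -1.18 ± 0.23, adjusted p = 0.0102. Stage 66 replicates 2 and 3 stood at 10262 and 10240.0 CPM of *hspa8* and at 5176 and 4439 of *hsp90ab1*. Stage 66 replicate 1 stood at 2983 and 1819, near the stage 54 means of 3315 and 1637. The *hspa8* call was lost in 12 other fits. The summed level of the immediate early and heat shock list also passed the permutation test of 6 against 6 libraries (ratio 0.494, exact permutation p = 0.00216, adjusted 0.0317). Ribosome biogenesis passed too (ratio 0.594, exact permutation p = 0.00433, adjusted 0.0476). With the T3 libraries as 1 sample the exact permutation p of these was 0.138 and 0.133. For ribosome biogenesis, stage 66 replicates 2 and 3 stood far above the rest, at 11390 and 9970 CPM. Stage 66 replicate 1 stood at 5661 and stage 54 at 4303 to 4892, against 3731 to 4391 on the high-hormone side. On library totals without the TMM scaling the exact permutation p of this list was 0.0628, which is 0.262 after adjustment. The endothelial list, given below, also passed the test of 6 against 6 libraries.

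Regulators of transcription and chromatin were called in both directions. Of 38 tested genes for chromatin and DNA methylation 5 were higher (13.2%, against 6.34% of all genes) and 1 lower, or 17 and 4 without stage 66 replicate 1. *ezh2*, a histone methyltransferase, had 29.2 ± 0.975 CPM at stage 54, 76.6 ± 1.7 with T3, 50.8 ± 10.6 at stage 61 and 38.2 ± 7.57 at stage 66. Its contrast was log2 0.9 ± 0.13, adjusted p = 0.00213 and its difference between the comparisons log2 0.99 ± 0.26, adjusted p = 0.0278. Of 23 hepatocyte transcription factors 1 was higher and 3 lower (13%, against 7.19% of all genes). *foxa1* was higher (log2 0.53 ± 0.14, adjusted p = 0.0308) and its relative *foxa2* lower (log2 -0.47 ± 0.13, adjusted p = 0.0391), calls lost in 9 and 12 other fits. *nr2f2*, an orphan receptor, fell in both comparisons (log2 -0.84 ± 0.18, adjusted p = 0.0115 and log2 -0.85 ± 0.18, adjusted p = 0.014). *tfe3*, a regulator of lysosome genes, was higher in all high-hormone libraries (log2 0.72 ± 0.12, adjusted p = 0.0047). In the list of lysosome and autophagy 5 of 46 genes were higher (15, with 9 lower, without stage 66 replicate 1), such as *gusb*, a glucuronidase, with log2 1.25 ± 0.19, adjusted p = 0.00241 and log2 1.06 ± 0.19, adjusted p = 0.00544. *nr3c2*, the mineralocorticoid receptor, had log2 0.69 ± 0.17, adjusted p = 0.0227, a call lost in 5 other fits. Of 17 clock genes 4 were lower (23.5%, against 7.19% of all genes), and 0 with the T3 libraries summed, where 0.114% of all genes were lower.

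**Figure D5:**
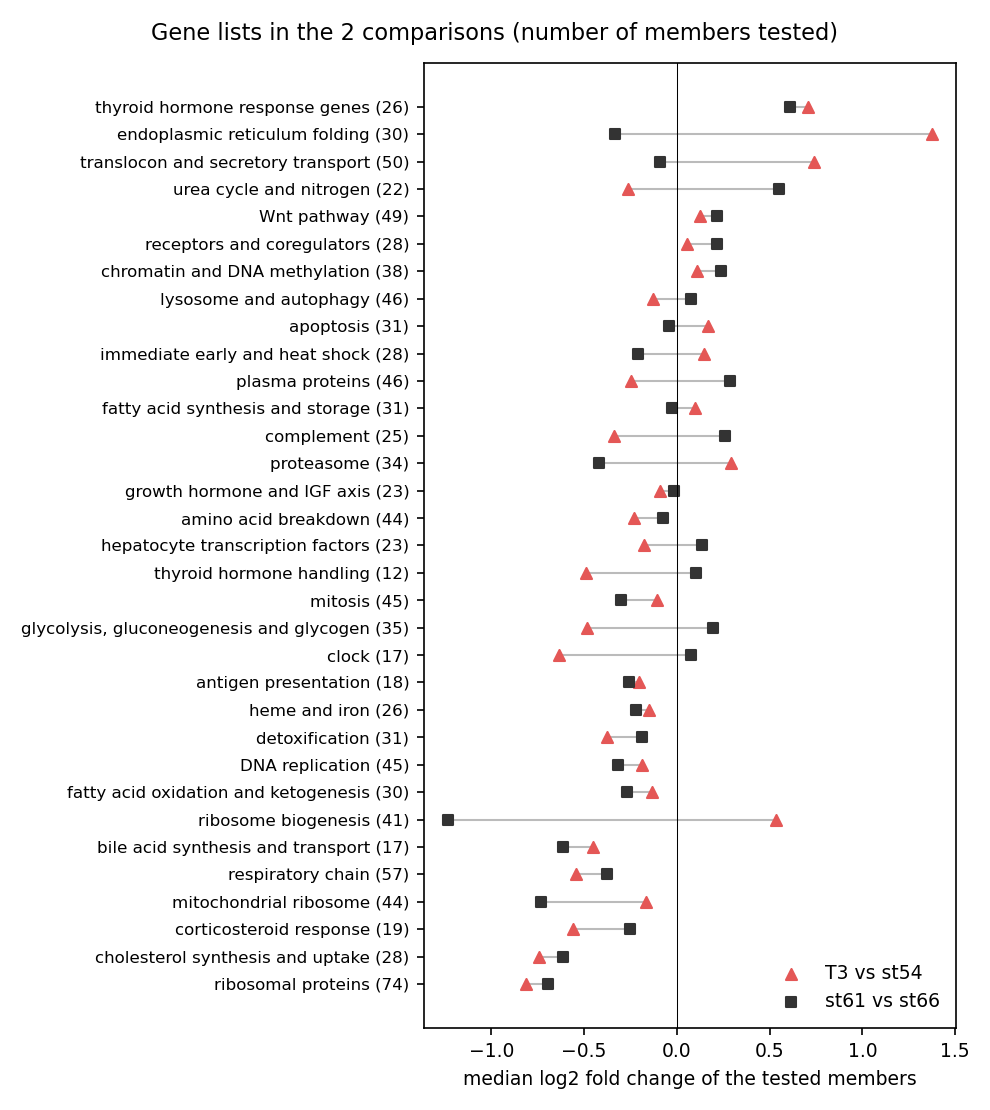
Median log2 fold change of the tested members of 33 gene lists (y axis, number of members in brackets, ordered by the median hormone contrast) with T3 against stage 54 (triangles) and at stage 61 against stage 66 (squares). Hormone response genes are high in both (0.71 and 0.61), while endoplasmic reticulum folding (1.38 and -0.33) and ribosome biogenesis (0.53 and -1.23) lie on opposite sides of 0.

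In several lists the 2 comparisons went apart, so that the contrast averaged unlike changes. Among 30 tested genes for folding in the endoplasmic reticulum, 16 were higher with T3, the median was 1.38 with T3 and -0.33 at stage 61, and the difference was called for 11. At stage 61 against stage 66, 0 of these genes were called in either direction. The list's summed level was 10070 CPM in stage 66 replicate 1 and 6569 and 5296 in its fellows, against 6045 to 6425 at stage 61. The contrast called 2 of the 30 genes higher, and 23 without stage 66 replicate 1. *hspa5*, the main chaperone of that compartment, chosen after its values were seen, had 150.1 ± 69.3 CPM at stage 54, 900.5 ± 28.2 with T3, 119 ± 41.3 at stage 61 and 279 ± 302 at stage 66. *dnajb9*, its cochaperone, had 15.3 ± 6.52 CPM at stage 54, 74 ± 3.4 with T3, 7.9 ± 2.36 at stage 61 and 7.83 ± 2.95 at stage 66 and a difference of log2 2.3 ± 0.48, adjusted p = 0.0105. In the list of the translocon and secretory transport 24 of 50 genes were higher with T3, and 1 higher and 2 lower at stage 61. In the contrast 6 were higher, and 24 without stage 54 replicate 3. *srp54*, of the signal recognition particle, rose with T3 (log2 1.43 ± 0.29, adjusted p = 0.00887) by more than at stage 61 (log2 0.1 ± 0.28, adjusted p = 0.861), a difference that passed (log2 1.33 ± 0.4, adjusted p = 0.0458). The coat protein gene *sec23a* did rise in both, by log2 1.85 ± 0.31, adjusted p = 0.0041 and log2 1.62 ± 0.31, adjusted p = 0.00835, and *kdelr3*, a retrieval receptor, was higher in all high-hormone libraries (log2 1.5 ± 0.25, adjusted p = 0.00476). Ribosome biogenesis went up in 1 comparison and down in the other: 9 of 41 genes were higher with T3, 33 lower at stage 61, and the difference was called for 31. The contrast called 11 lower. The RNA polymerase I subunits *polr1c* and *polr1e*, which are part of this list, had log2 -2.05 ± 0.16, adjusted p = 9.75e-05 and log2 -1.45 ± 0.14, adjusted p = 0.000251 at stage 61 and log2 0.19 ± 0.15, adjusted p = 0.396 and log2 0.28 ± 0.13, adjusted p = 0.158 with T3.

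In some genes the contrast rested on 1 group. Levels of *ccl4* were 0.732, 0.9 and 0.574 CPM at stage 54 and 44, 43.6 and 45.4 with T3. Later *ccl4* stood at 1.09, 0.902 and 0.796 at stage 61 and 0.755, 1.01 and 0.749 at stage 66. *ccl4*, a chemokine (chromosome 2, 97662524 to 97666006), was high in the T3 libraries and near 1 CPM in all 9 others, with a contrast of log2 3.02 ± 0.15, adjusted p = 3.08e-06. The contrast rests on T3 (log2 5.86 ± 0.21, adjusted p = 7.47e-08), since stage 61 against stage 66 was not called (log2 0.19 ± 0.24, adjusted p = 0.722) and the difference was (log2 5.67 ± 0.32, adjusted p = 1.4e-05). *acod1*, an enzyme of activated macrophages in mammals, had 5.02 ± 2.87 CPM at stage 54, 87.9 ± 0.814 with T3, 2 ± 0.451 at stage 61 and 6.94 ± 3.44 at stage 66. Its change was log2 4.11 ± 0.44, adjusted p = 0.0004 with T3 and log2 -1.72 ± 0.46, adjusted p = 0.0361 at stage 61, and its contrast (log2 1.19 ± 0.3, adjusted p = 0.0278) was lost in 8 other fits. *olfm4*, a secreted olfactomedin, had 41.8 ± 25 CPM at stage 54, 1264 ± 76.1 with T3, 93.9 ± 24.2 at stage 61 and 62.5 ± 64.2 at stage 66. *cxcl14*, another chemokine, was high at stage 61 alone (0.447 ± 0.283 CPM at stage 54, 0.875 ± 0.0757 with T3, 21.5 ± 14.9 at stage 61 and 0.866 ± 0.175 at stage 66). *cyp2g1p*, a P450 gene, rose with T3 and stayed high in old livers (3.01 ± 4.71 CPM at stage 54, 105 ± 1.71 with T3, 1253 ± 417 at stage 61 and 794 ± 218 at stage 66). Its age contrast (log2 5.88 ± 0.75, adjusted p = 0.000173) exceeded its hormone contrast (log2 2.96 ± 0.66, adjusted p = 0.0161). Levels of *ppp1r3c.2* were 337, 453 and 60 CPM at stage 54 and 61.5, 62.2 and 60.8 with T3. Later *ppp1r3c.2* stood at 117, 261 and 242 at stage 61 and 3.2, 6.08 and 7.94 at stage 66. *ppp1r3c.2*, a glycogen-targeting subunit of protein phosphatase 1 (chromosome 3, 130231579 to 130235442), fell with T3 and rose at stage 61, a difference of log2 -7.42 ± 0.91, adjusted p = 0.00103, and stage 54 replicate 3 lay at the T3 level. Its contrast was log2 1.51 ± 0.42, adjusted p = 0.0376, lost in 10 other fits. *gls2*, the liver glutaminase, did the same (log2 -2.0 ± 0.41, adjusted p = 0.0101 and log2 2.96 ± 0.44, adjusted p = 0.00241), and its contrast was not called (log2 0.48 ± 0.29, adjusted p = 0.275). *gfra3*, a neurotrophic factor receptor, fell with T3 (log2 -3.9 ± 0.72, adjusted p = 0.00647), with a difference of log2 -4.91 ± 0.96, adjusted p = 0.0081.

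The division by age gave more calls than that by hormone. The age contrast (stages 61 and 66 minus untreated and T3-treated stage 54) called 2408 genes higher (15.9%) and 1935 lower (12.8%), against the 958 and 1086 of the hormone contrast. These counts were between 1787 (without T3 replicate 2) and 3411 higher and between 1426 (without T3 replicate 3) and 3474 lower when 1 library was left out, both highest without stage 66 replicate 1. Of the 958 genes higher with hormone 444 also passed by age, and the hormone change was the larger for 692. For the 1086 lower genes these numbers were 428 and 852. Both sets were picked for a called hormone contrast, which by itself favours a hormone change larger than the age change. The 692 and 852 are therefore no evidence that these genes follow hormone more than age. Called in the contrast and both comparisons, and not by age, were 44 higher and 26 lower genes. These held *bcl6*, *tns4*, *lamb3*, *f5*, *loxl2* and *fzd8* among the first and *poli*, *amn1*, *ppat*, *hpgds*, *pcna* and *gins1* among the second. The direct test of unequal change, T3 against stage 54 minus stage 61 against stage 66, was positive for 1318 genes (8.73%) and negative for 879 (5.82%), and ran from 705 (without T3 replicate 2) to 2033 (without stage 54 replicate 3) and from 362 to 1622 over the same omissions.

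Markers of other cells were compared, since whole liver holds vessels, blood, macrophages and fibroblasts. Of 26 tested endothelial genes 5 were higher in the contrast, and 12 without stage 66 replicate 1. At stage 61 against stage 66, 5 were higher, with a list median of 0.69. With T3, 1 was higher, with a list median of -0.08. Their summed level was 1938 to 1954 CPM with T3, 2344 to 3534 at stage 61, 1120 to 1738 at stage 54 and 611 to 1522 at stage 66, so the sides did not overlap (ratio 2.08, exact two-sided permutation p = 0.00216, adjusted 0.0317 over 44 lists). With the T3 libraries as 1 sample the ratio was 2.3 and the exact permutation p 0.00476, the smallest that 4 against 6 allows, which is 0.209 after adjustment. These tests take the libraries as exchangeable, although they form 4 groups. The list was chosen with earlier results of these data known, so its p-values are not independent evidence. *stab2*, a scavenger receptor of liver sinusoids, made up much of the summed level. It had 500.3 ± 344 CPM at stage 54, 1097 ± 3.66 with T3, 1299 ± 425 at stage 61 and 260.0 ± 184 at stage 66. Stage 54 replicate 3, at 898 CPM, lay within the stage 61 range. The *stab2* contrast was log2 1.73 ± 0.4, adjusted p = 0.0197. The call was lost in 3 other fits, among them those without stage 54 replicate 2 or stage 66 replicate 2. *cldn5*, a tight junction protein, was higher in both comparisons (log2 0.87 ± 0.2, adjusted p = 0.0165 and log2 1.48 ± 0.2, adjusted p = 0.00166), and *lyve1*, a hyaluronan receptor, at stage 61 (log2 1.95 ± 0.33, adjusted p = 0.00464) and not with T3 (log2 0.2 ± 0.32, adjusted p = 0.694), a difference that passed (log2 -1.75 ± 0.46, adjusted p = 0.027). *eng*, a coreceptor of vessels, had log2 0.66 ± 0.16, adjusted p = 0.0255, lost in 9 other fits.

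The other marker lists were compared in the same way. Of 16 tested erythroid genes 0 were called by edgeR, where 5 had an unadjusted p under 0.05, DESeq2 called 3 and limma voom 1, all lower, and the abundant globin gene *hba3* had log2 -0.89 ± 0.31, adjusted p = 0.0772. Of 19 myeloid genes 2 were lower, *c1qa* (log2 -0.82 ± 0.16, adjusted p = 0.00864) and *c1qc* (log2 -0.86 ± 0.18, adjusted p = 0.012), complement chains made by macrophages. The summed level overlapped between the sides (1565 to 3165 CPM at stage 54, 1902 to 1907 with T3, 2202 to 3336 at stage 61, 2122 to 2430 at stage 66). Of 30 fibroblast genes 2 were higher, *loxl2* and *reln*, a secreted matrix protein (log2 1.17 ± 0.27, adjusted p = 0.0189), and 1 was lower, *des.1*, desmin (log2 -0.85 ± 0.18, adjusted p = 0.0145). Their summed level followed age, at 3954 to 5804 CPM in the young libraries and 8233 to 14210 in the old. Pigment cell markers were highest at stage 66 (125 to 240 CPM, against 10.4 to 35.4 in the other libraries), with *gpnmb*, a melanosome protein also made by macrophages, at log2 -1.8 ± 0.28, adjusted p = 0.00327. The ratio of the sides was 0.2 for these markers, and 1 of their 5 tested genes was called. Exocrine pancreas markers summed to 718 to 1664 CPM at stage 66, below the 2608 to 2731 with T3. The stage 54 (1233 to 4480) and stage 61 (1211 to 4992) libraries overlapped both, and 2 of 23 genes were higher in the contrast, at a median of 0.83. Skeletal muscle markers ranged from 81.8 to 86.1 CPM with T3 and from 141 to 957 elsewhere, and 1 of 11 genes was lower, at a median of -2.08. The part of these cell types in the gene results above was not tested.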

How the data were processed

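Raw counts per gene were used as the authors deposited them, 1 column per library, for 26529 genes (2 more, on 6 broken lines, were left out). Per the submitters' processing notes, cutadapt 3.4 and STAR 2.7.8a were used to make the counts. The sources used here give no build, annotation, strand setting or handling of duplicates, so overlapping genes and near-identical copies may share reads. Positions are those of the deposited table, and 26287 genes equal the UCB_Xtro_10.0 assembly in start and end. Counts were normalised by TMM and fitted in edgeR 4.0.16 (R 4.3.3, limma 3.58.1) by a robust quasi-likelihood model of 4 group means, with 8 residual degrees of freedom, after filterByExpr by group left 15102 genes. Tested on simulated data for the hormone contrast (14963 genes, 200 changed), the model found 58% of the 2-fold and 95% of the 4-fold changes and made 153 true calls beside 4 false ones. The simulated libraries had the same spread per gene in all 4 groups, no change by age and no library that stood apart. The real libraries differ in each of these, so the rates of true and false calls in the real data are not known from it.

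Genes were named by rule. In each direction, separating genes were ranked by the smaller in size of their changes in both comparisons, and the first 8 were taken. Added to these were the 6 largest and 5 most abundant calls, and up to 4 called members of each of 44 gene lists. Also taken were 13 genes of standing interest and the 5 largest differences between comparisons in each direction. A minimum of 10 CPM was set. Not every gene so chosen is named. The members, lists and rule were chosen with earlier results of these data known. Alternatives were RLE factors, DESeq2 1.42.0, limma voom with group weights, no filter on low counts, a replicate block, the T3 libraries summed, pairs of groups alone and leaving out each library. Summed levels of lists were tested over libraries, also with the T3 libraries as 1 sample, a setting chosen after seeing the data. P-values measure the spread between these libraries, which the labels call biological replicates. In edgeR that spread was pooled over all groups, the close T3 libraries included, also where stage 61 was tested against stage 66. Fitting only the libraries compared gave 170 genes higher and 181 lower at stage 61, where the pooled fit gave 647 and 866. With T3 against stage 54 it gave 2412 and 2338, where the pooled fit gave 1430 and 1140. The edgeR adjusted p-values of single genes are those of the pooled fit.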

Additional observations from a re-analysis of the deposited data

Results flagged for a closer look

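For 43 genes named above, the change with T3 against stage 54 and the change at stage 61 against stage 66 differed at an edgeR adjusted p under 0.05 in the test of the difference itself. Values are the first log2 fold change minus the second, so a positive value means a change that was higher with T3. Among hormone response genes, regulators and the carrier of thyroid hormone it was 4.1 for *thrb*, 1.72 for *klf9*, 1.46 for *nfib*, 2.86 for *nfic*, 2.18 for *nfix*, -1.36 for *rxrg*, -1.26 for *ttr*, 0.99 for *ezh2*, -0.86 for *foxa2*, 0.85 for *tfe3* and -3.73 for *ddit4*. Among genes of matrix, surface and secreted proteins it was 3.94 for *mmp9.2*, 3.4 for *adamts17*, -2.3 for *lamb3*, 5.67 for *ccl4*, 4.33 for *olfm4*, -3.45 for *cxcl14*, -1.42 for *f12*, -1.75 for *lyve1*, 2.75 for *gpnmb* and -4.91 for *gfra3*. In metabolism it was 1.19 for *gstz1*, -2.48 for *oat*, -2.28 for *aldh4a1*, -1.3 for *cps1*, -3.39 for *scd*, 2.57 for *akr1d1*, 2.01 for *slc51a*, -1.01 for *acox2*, 1.75 for *ephx2*, -1.73 for *agl*, 4.6 for *cyp2g1p*, 5.83 for *acod1*, -7.42 for *ppp1r3c.2* and -4.96 for *gls2*. In protein folding, secretion, ribosome production and the remaining genes it was 3.82 for *hspa5*, 2.3 for *dnajb9*, 1.33 for *srp54*, 2.25 for *polr1c*, 1.73 for *polr1e*, 0.86 for *mrps5*, 3.38 for *asb11* and 3.65 for *plekhd1*. The largest in size were those of *ppp1r3c.2* and *acod1*, in which the 2 changes had opposite signs. The 2 comparisons also differ in how long hormone acted, in age and in the spread of their libraries, and these cannot be told apart in this design. All these tests of a difference, here and above, take the 3 very close T3 libraries as independent, which the counts alone cannot show. The numbers of other fits in which a call was lost refer to the hormone contrast. They do not show how firm the differences are.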

How the results depend on the processing

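No value of a named gene that was called in the fit of all libraries changed sign under any of the alternatives run. Changes of sign in values not called there were not counted. Some named genes without a call in the hormone contrast gained one in other fits. These were *gfra3* in 4 fits, *dio3*, *ttr*, *alb* and *hba3* in 3 each, and *nfia*, *hspa5* and *mki67* in 2 each. No fit called *cps1*, *arg1* or *gls2*. Of the 112 named genes called in the hormone contrast, 111 were still called without the 2 libraries that stood apart, a setting chosen after seeing the data. Counts moved far more, and the cause was not tested. In the order hormone contrast higher and lower, called also in both comparisons higher and lower, T3 against stage 54, stage 61 against stage 66, their difference, and age, that setting gave 3980, 3863, 1195, 1342, 3872, 3823, 3084, 3317, 3076, 2814, 4024 and 4046. The T3 libraries summed gave 97, 18, 7, 0, 62, 0, 230, 257, 54, 11, 819 and 743, and of the lower counts of 0 from edgeR, 544 (with T3) and 54 (in both) genes had an unadjusted p under 0.05. DESeq2 gave 1474 and 1905 for the contrast, 202 and 150 for both, 1890 lower with T3, 1194 and 1330 at stage 61, and 1526 lower for the difference. limma voom with group weights gave 2547 and 2304 with T3, and 289 and 485 at stage 61. Without a filter on low counts 38 were lower in both. Fits of only the libraries compared gave 2412 and 2338 with T3, and 170 and 181 at stage 61. Replicate numbers were shared between groups. Deviations of same-numbered libraries correlated by -0.11 to 0.158, over 0.1 in 1 of 18 pairs. With 3 libraries in each group these values show no clear pairing but cannot exclude one, and the main fit used none. With the number as a replicate block 684 were lower in the contrast, 30 in both and 695 with T3. Leaving out 1 library gave, in the same order, 452 to 2852, 324 to 2978, 41 to 515, 9 to 853, 537 to 2549, 205 to 2532, 308 to 2082, 278 to 2477, 705 to 2033, 362 to 1622, 1787 to 3411 and 1426 to 3474. In the shallowest library 3 counts were worth 0.378 CPM, which limits folds of genes near 0.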
